A study of Mus musculus with 8 samples.

Results

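Collagens are the proteins that build the fibrils, networks and anchoring structures of the extracellular matrix, and their genes were compared here between 4 subsets of mouse medullary thymic epithelial cells (mTECs). All protein-coding genes with a symbol of the form Col, number, a, number were taken, which gave 44 genes of the 25466 in the count table. Of these, 43 had enough counts to be tested among 17006 genes, and Col8a2 did not. The 44 genes were sorted by the structure their chains form: 6 of the type IV network of basement membranes, 3 of the basement membrane zone (Col7a1, Col15a1, Col18a1), 6 of type VI beaded filaments, 11 fibrillar, 9 fibril-associated, 4 transmembrane, 3 of short-chain networks and 2 others.

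The study sorted mTECs of wild-type mice by the surface protein Tspan8, which marks part of the cells that express tissue-restricted antigens, and by MHC class II, which is low on immature and late cells and high on mature ones. RNA of each subset was sequenced in bulk in 2 libraries, for Tspan8neg MHCIIlo, Tspan8neg MHCIIhi, Tspan8pos MHCIIhi and Tspan8pos MHCIIlo. The methods give BL6N6 mice of 4 to 6 weeks, thymi digested with collagenase and dispase, and a gate on CD45neg, Epcam-positive, CDR1neg cells, and no group carried a mutation or a treatment. The labels call the 2 libraries of a subset biological replicates without saying whether they came from separate mice, so p-values measure the spread between these libraries.

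A collagen molecule is a triple helix of 3 chains, which can be products of the same gene or of different genes. Type IV chains assemble into the sheet of every basement membrane, with α1 and α2 chains almost everywhere and α3 to α6 chains in particular epithelia, and their genes lie in head-to-head pairs. Fibrillar collagens, such as types I, II, III and V, are the cable-like collagens of connective tissue, bone and cartilage and are mostly made by mesenchymal cells, while fibril-associated collagens bind to the surface of such fibrils. Transmembrane collagens are anchored in the plasma membrane, and the best known in epithelia, type XVII, is part of the hemidesmosome that holds basal keratinocytes to their basement membrane. mTECs also transcribe many tissue-restricted genes, so transcripts of structural proteins of other tissues occur in them.

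Libraries held between 1941518 and 7783841 counts, the lowest in replicate 1 of Tspan8pos MHCIIlo. A count of 0 was bounded by 3 counts, which is 0.385 to 1.65 CPM (counts scaled to equal library sizes) depending on the library. This limit covers counting error only. Subsets with at most 3 counts in each library were set at the same level, and a fold against it need not be a lower bound. Epithelial markers were present throughout, with Epcam at 367 to 1081 CPM and Krt8 at 1694 to 4233 CPM. Summed CPM of 8 thymocyte markers was 423 and 1164 in the Tspan8neg MHCIIlo libraries and 68.8 to 211 in the other 6. Summed CPM of 8 endothelial markers was 197 and 132 in Tspan8neg MHCIIlo, 142 and 103 in Tspan8pos MHCIIlo and 28.5 to 38.3 in the MHCIIhi subsets. Of 10 fibroblast markers, 9 were in the table, and their sum was 183 and 185 CPM in Tspan8neg MHCIIlo, 141 and 130 in Tspan8neg MHCIIhi and 81.4 to 97.3 in the Tspan8pos subsets, with Pdgfra at 0.513 to 5.34 CPM. Of the more abundant ones, Dcn had 61.0 and 69.1 CPM and Fbn1 94.9 and 60.6 CPM in Tspan8neg MHCIIlo, and 17.7 to 26.4 and 18.5 to 34.3 CPM in the other 6 libraries. For 8 pericyte and smooth muscle markers the sum was 1345 and 952 CPM in Tspan8neg MHCIIlo, 714 and 695 in Tspan8neg MHCIIhi, 501 and 405 in Tspan8pos MHCIIhi and 296 and 247 in Tspan8pos MHCIIlo, with Kcnj8 at 0 to 0.597 CPM. Of these, Acta2 had 214 and 132.5 CPM and Tagln 232 and 154 CPM in Tspan8neg MHCIIlo, and 17.2 to 30.8 and 9.36 to 34.1 CPM in the other 6 libraries. Acta2, Tagln, Dcn and Fbn1 were each called lower, as were Col4a1, Col4a2, Col18a1, Col6a1 and Col6a2, in Tspan8pos among MHCIIlo cells and in MHCIIhi among Tspan8neg cells. Other listed markers did not all follow. Rgs5 and Myh11, more abundant than Acta2 and Tagln in Tspan8neg cells, were called lower in Tspan8pos among MHCIIlo cells. Among Tspan8neg cells Rgs5 had 444 and 253 CPM in MHCIIlo and 299 and 317 in MHCIIhi. Myh11 had 305 and 189 CPM in MHCIIlo and 314 and 278 in MHCIIhi. Tspan8pos among MHCIIlo cells had 2 of 9 fibroblast markers lower and 1 higher, and 5 of 7 tested pericyte and smooth muscle markers lower. MHCIIhi among Tspan8neg cells had 3 lower and 2 higher of the first list, and 3 lower and 1 higher of the second. Of all genes, 9.34% and 9.67% were lower and 12.1% and 13.1% higher in these contrasts. Pdgfrb had 12.1 and 27.35 CPM in Tspan8neg MHCIIlo and 59.3 and 47.8 in Tspan8neg MHCIIhi. The part of these cell types in the differences below was not tested. In such bulk samples, fewer cells of a kind and less RNA per cell cannot be told apart.

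Tspan8neg MHCIIlo mTECs had the highest summed collagen transcript level. In RPKM (CPM divided by the exon length of the gene in kilobases), the 44 genes summed to 690 and 432 in the Tspan8neg MHCIIlo libraries and to 311 and 293 in Tspan8neg MHCIIhi. The sum was 152 and 148 RPKM in Tspan8pos MHCIIhi and 206 and 186 RPKM in Tspan8pos MHCIIlo. No subset overlapped another in this sum, and both Tspan8neg subsets lay above both Tspan8pos subsets. Type IV and type VI chains made up most of the sum in Tspan8neg MHCIIlo.

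Basement membrane, fibrillar and transmembrane types, the 3 compared here, were distributed differently over the subsets. Type IV genes summed to 249 and 132 RPKM in Tspan8neg MHCIIlo, 69.1 and 61.0 in Tspan8neg MHCIIhi, 38.9 and 35.6 in Tspan8pos MHCIIhi and 49.3 and 36.6 in Tspan8pos MHCIIlo. Fibrillar genes instead were highest in Tspan8neg MHCIIhi, with 74.6 and 72.4 RPKM, against 49.3 and 53.7 in Tspan8neg MHCIIlo, 33.9 and 36.8 in Tspan8pos MHCIIhi and 27.7 and 30.0 in Tspan8pos MHCIIlo. Transmembrane genes had 28.5 and 27.6 RPKM in Tspan8neg MHCIIhi, 13.6 and 14.7 in Tspan8pos MHCIIhi, 9.38 and 9.55 in Tspan8neg MHCIIlo and 7.22 and 3.89 in Tspan8pos MHCIIlo. As shares of the collagen sum, type IV took 36.1% and 30.5% in Tspan8neg MHCIIlo and 19.7% to 25.6% in the other 6 libraries. The fibrillar share was 22.3% to 24.9% in the 4 MHCIIhi libraries and 7.14% to 16.2% in the 4 MHCIIlo libraries. The transmembrane share was 8.92% to 9.96% in MHCIIhi and 1.36% to 3.51% in MHCIIlo, so both shares separated the MHCII levels without overlap. A share also depends on the other types. The fibrillar RPKM itself did not separate the MHCII levels, being higher in Tspan8neg MHCIIlo than in Tspan8pos MHCIIhi. A summed level is dominated by few genes. Col4a1 and Col4a2 led type IV in every library, but Col4a5 added 4.81 to 5.34 RPKM in the Tspan8pos libraries, beside 16.95 to 25.8 RPKM of Col4a1 and 9.79 to 14.95 RPKM of Col4a2. Col17a1 made up most of the transmembrane sum in every library. It held 26.3 of 28.5 RPKM in replicate 1 of Tspan8neg MHCIIhi and 7.80 of 9.38 RPKM in replicate 1 of Tspan8neg MHCIIlo. The transmembrane sums and shares are thus mainly those of this gene.

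**Figure D1:**
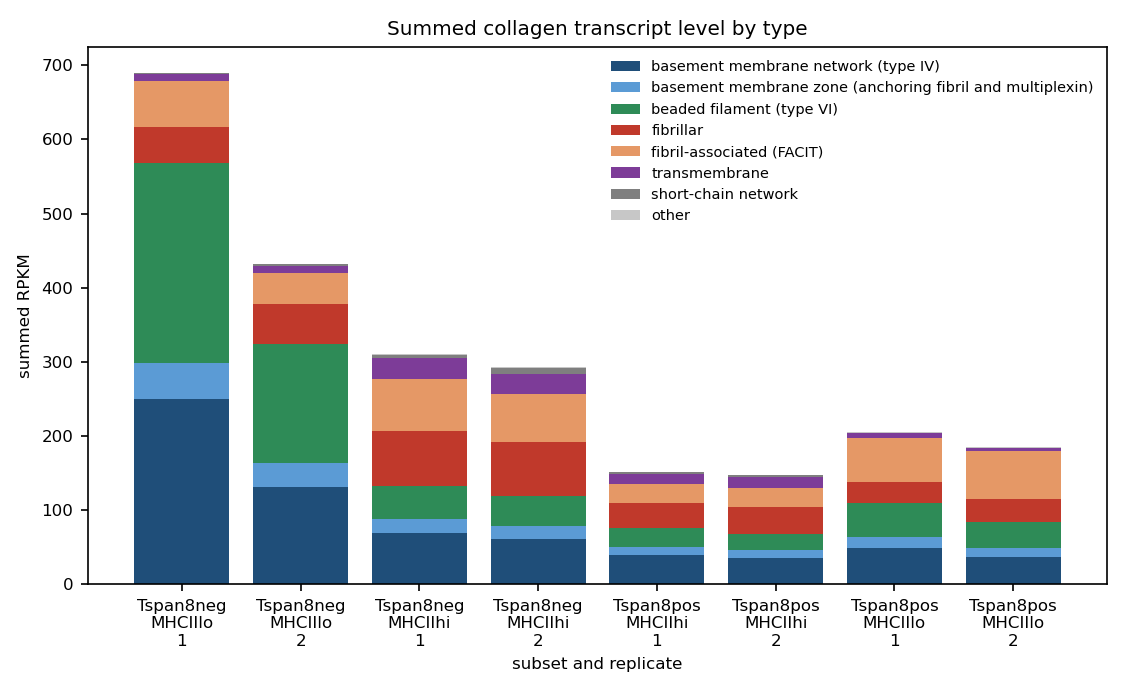
Summed RPKM of the collagen genes (vertical axis) in each of the 8 libraries, stacked by collagen type. The Tspan8neg MHCIIlo libraries reach 690 and 432, mostly from type IV and type VI, and the Tspan8pos MHCIIhi libraries 152 and 148.

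Single collagen genes peaked most often in Tspan8neg MHCIIhi. By mean CPM, 24 of the 43 tested genes were highest in Tspan8neg MHCIIhi, 13 in Tspan8neg MHCIIlo, 2 in Tspan8pos MHCIIhi and 4 in Tspan8pos MHCIIlo. In percent, 55.8% of the collagen genes peaked in Tspan8neg MHCIIhi, against 27.9% of all genes tested. In Tspan8neg MHCIIlo it was 30.2%, against 30.6% of all genes, so that count is no result about collagens. Tspan8pos MHCIIlo had 9.30%, against 24.2%, and Tspan8pos MHCIIhi 4.65%, against 17.4%. The highest mean levels per length over the 8 libraries were those of Col6a1 (51.8 RPKM), Col4a1 (49.1 RPKM), Col4a2 (29.7 RPKM) and Col16a1 (23.5 RPKM). Col27a1 led the fibrillar genes at 10.1 RPKM, and Col17a1 the transmembrane ones at 13.1 RPKM.

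**Figure D2:**
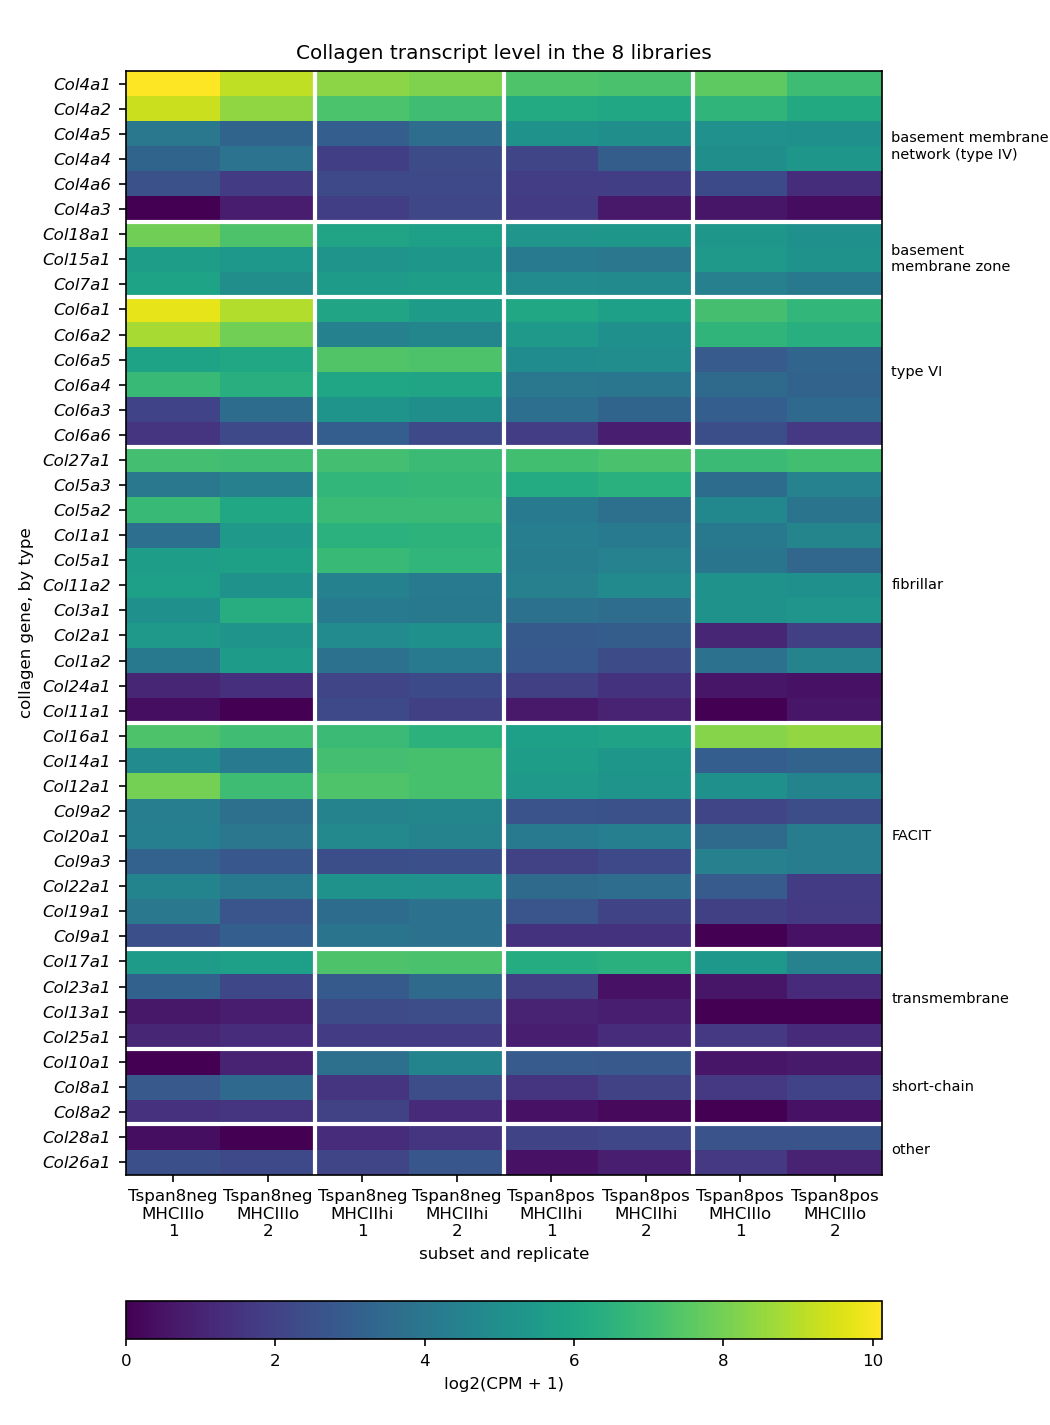
Transcript level of the 44 collagen genes as log2(CPM + 1) (colour) in the 8 libraries (columns), by collagen type and within a type by mean RPKM. Col4a1, Col4a2, Col6a1 and Col6a2 are brightest in Tspan8neg MHCIIlo, and Col16a1 in Tspan8pos MHCIIlo.

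Tspan8pos cells were compared with Tspan8neg cells at each MHCII level, which asks how the collagen genes differ between mTECs with and without this marker. Called genes had both an edgeR quasi-likelihood adjusted p (Benjamini-Hochberg) below 0.01 and a log2 fold change of 1 or more in size. Among MHCIIlo cells, 16 collagen genes (37.2% of those tested) were lower in Tspan8pos and 5 (11.6%) were higher, against 9.34% and 12.1% of all genes. Among MHCIIhi cells, 15 (34.9%) were lower and 1 (2.33%), Col4a5, was higher, against 7.45% and 11% of all genes. The median log2 fold change of the 43 genes was -1.34 in MHCIIlo and -1.14 in MHCIIhi, beside -0.03 for all genes in both. The 2 contrasts share no library, and 11 collagen genes were called lower in both, which is 68.8% of the first list, 73.3% of the second and 25.6% of the genes tested, against 3.26% of all genes. These 11 were Col2a1, Col5a1 and Col5a2 of the fibrillar type, Col9a1, Col9a2, Col12a1, Col14a1 and Col22a1 of the fibril-associated type, Col6a4 and Col6a5 of type VI, and Col4a2. Without replicate 2 of Tspan8pos MHCIIlo, the most deeply sequenced library, 13 collagen genes were called in MHCIIlo in place of 21. In a fit of the 4 MHCIIlo libraries alone, the calls of Col7a1, Col9a3, Col14a1 and Col22a1 were lost.

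**Figure D3:**
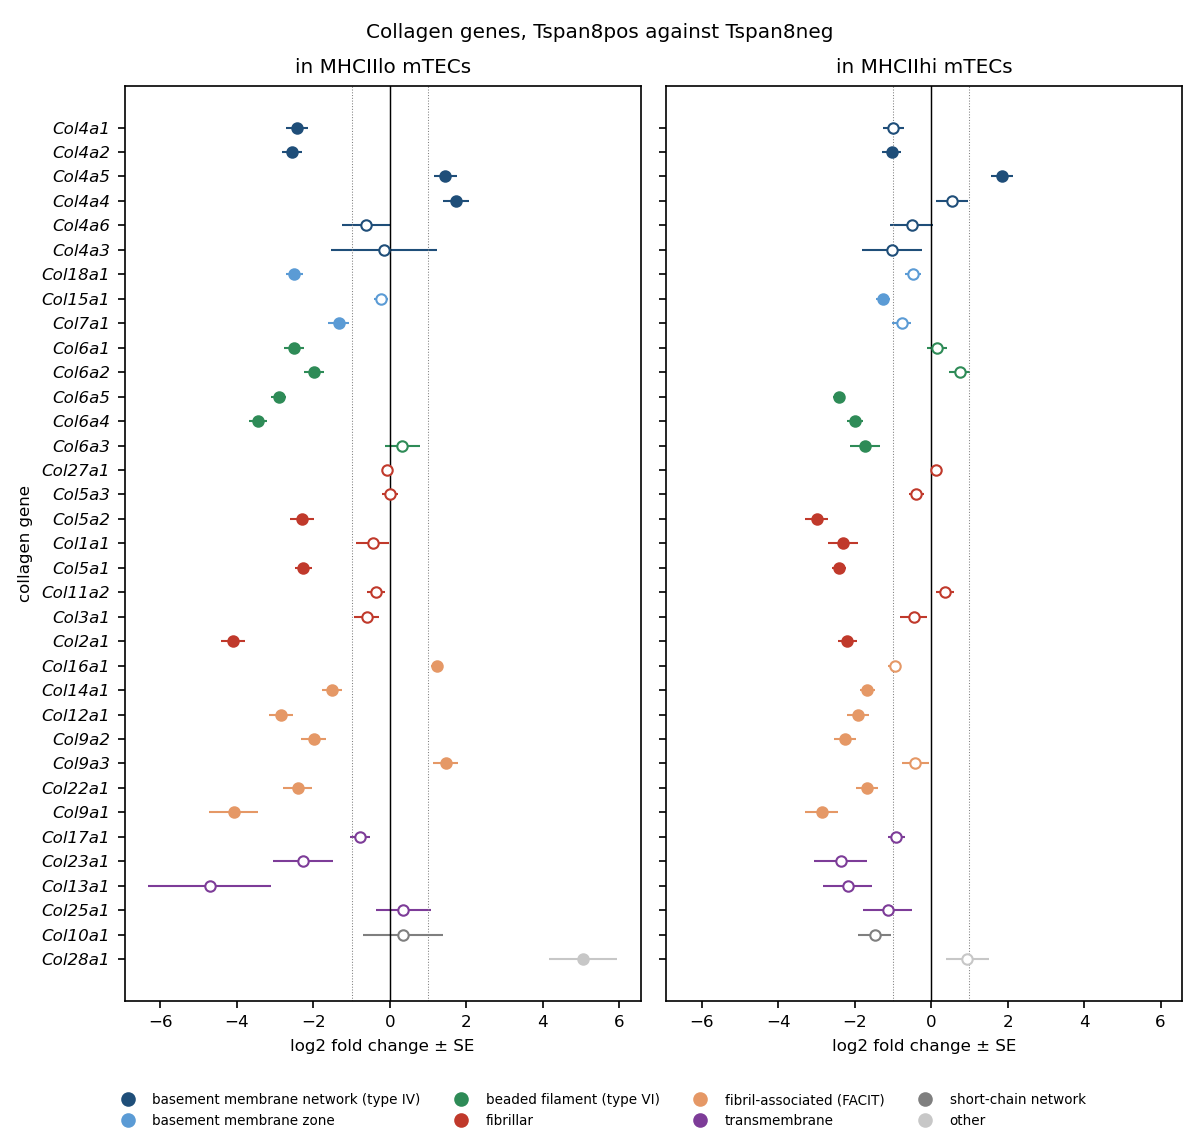
Log2 fold change of Tspan8pos against Tspan8neg (horizontal axis, bars are SE) for 35 collagen genes in MHCIIlo (left) and MHCIIhi (right) mTECs, coloured by type, with filled points called and dotted lines at log2 fold changes of 1 in either direction. Most filled points lie left of 0, with Col4a5 right of 0 in both panels, and fits of Col4a3, Col9a1, Col13a1 and Col28a1 in MHCIIlo rest on a subset at or under 3 counts per library.

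MHCIIhi cells were compared with MHCIIlo cells within each Tspan8 level, which asks how collagen genes differ between mature cells and the immature or late cells of the MHCIIlo gate. Among Tspan8neg cells, 9 collagen genes (20.9%) were higher in MHCIIhi and 8 (18.6%) were lower, against 13.1% and 9.67% of all genes. Among Tspan8pos cells, 5 (11.6%) were higher and 6 (14.0%) lower, against 4.59% and 2.62% of all genes. The median log2 fold change was 0.21 and 0.18, so no common direction was seen. Called higher in both contrasts were Col5a3, Col6a5, Col10a1, Col14a1 and Col17a1 (11.6% of the genes tested, against 3.79% of all genes), and called lower in both were Col3a1, Col4a4 and Col6a2 (6.98%, against 1.35%). Without replicate 2 of Tspan8neg MHCIIhi the count in Tspan8neg was 11 in place of 17. A fit of the 4 Tspan8neg libraries alone lost the calls of Col1a1, Col3a1, Col4a1, Col4a4 and Col11a2. In Tspan8pos it was 5 or 6 in place of 11 without replicate 1 or 2 of Tspan8pos MHCIIhi, and 6 without replicate 2 of Tspan8pos MHCIIlo.

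**Figure D4:**
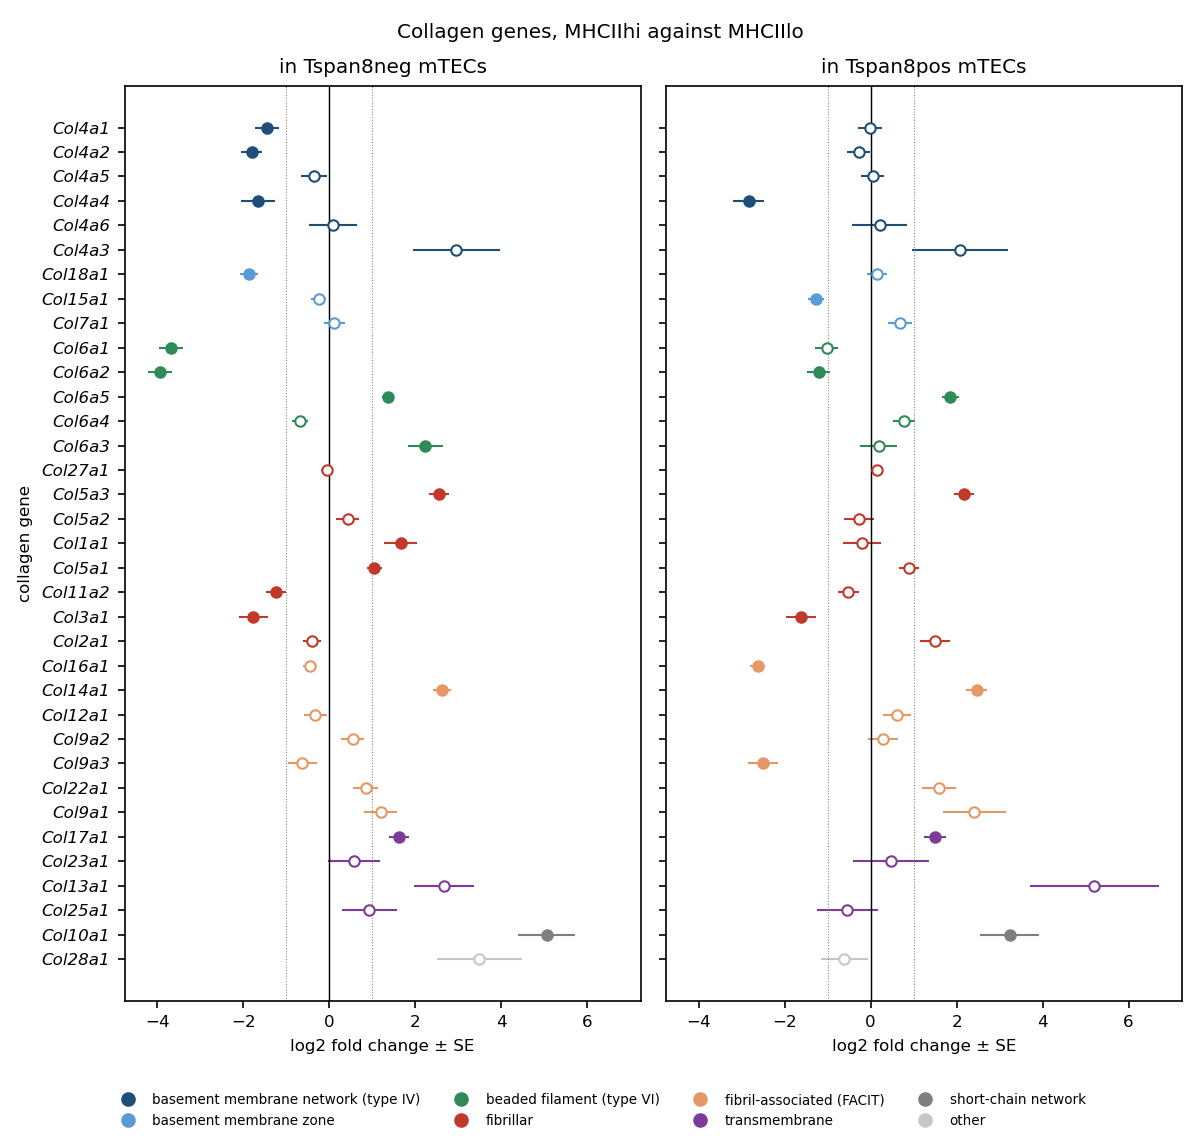
Log2 fold change of MHCIIhi against MHCIIlo (horizontal axis, bars are SE) for 35 collagen genes in Tspan8neg (left) and Tspan8pos (right) mTECs, coloured by type, with filled points called and dotted lines at log2 fold changes of 1 in either direction. Col6a1 and Col6a2 lie far left in Tspan8neg, and Col10a1, Col14a1, Col5a3 and Col17a1 lie right of 0 in both panels, while fits of Col4a3, Col9a1, Col13a1 and Col28a1 rest in part on MHCIIlo subsets at or under 3 counts per library.

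The difference between Tspan8pos and Tspan8neg cells varied with the MHCII level for 4 collagen genes, by the interaction in the same fit. Col16a1 (2.33% of the genes tested, against 2.36% of all genes) had a positive interaction, and Col18a1, Col6a1 and Col6a2 (6.98%, against 2.24%) a negative one. This count was 7 and 11 without replicate 1 or 2 of Tspan8neg MHCIIlo, 2 without replicate 2 of Tspan8neg MHCIIhi or replicate 1 of Tspan8pos MHCIIhi, and 1 without replicate 2 of Tspan8pos MHCIIlo. With the replicate number as a block it was 8.

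**Figure D5:**
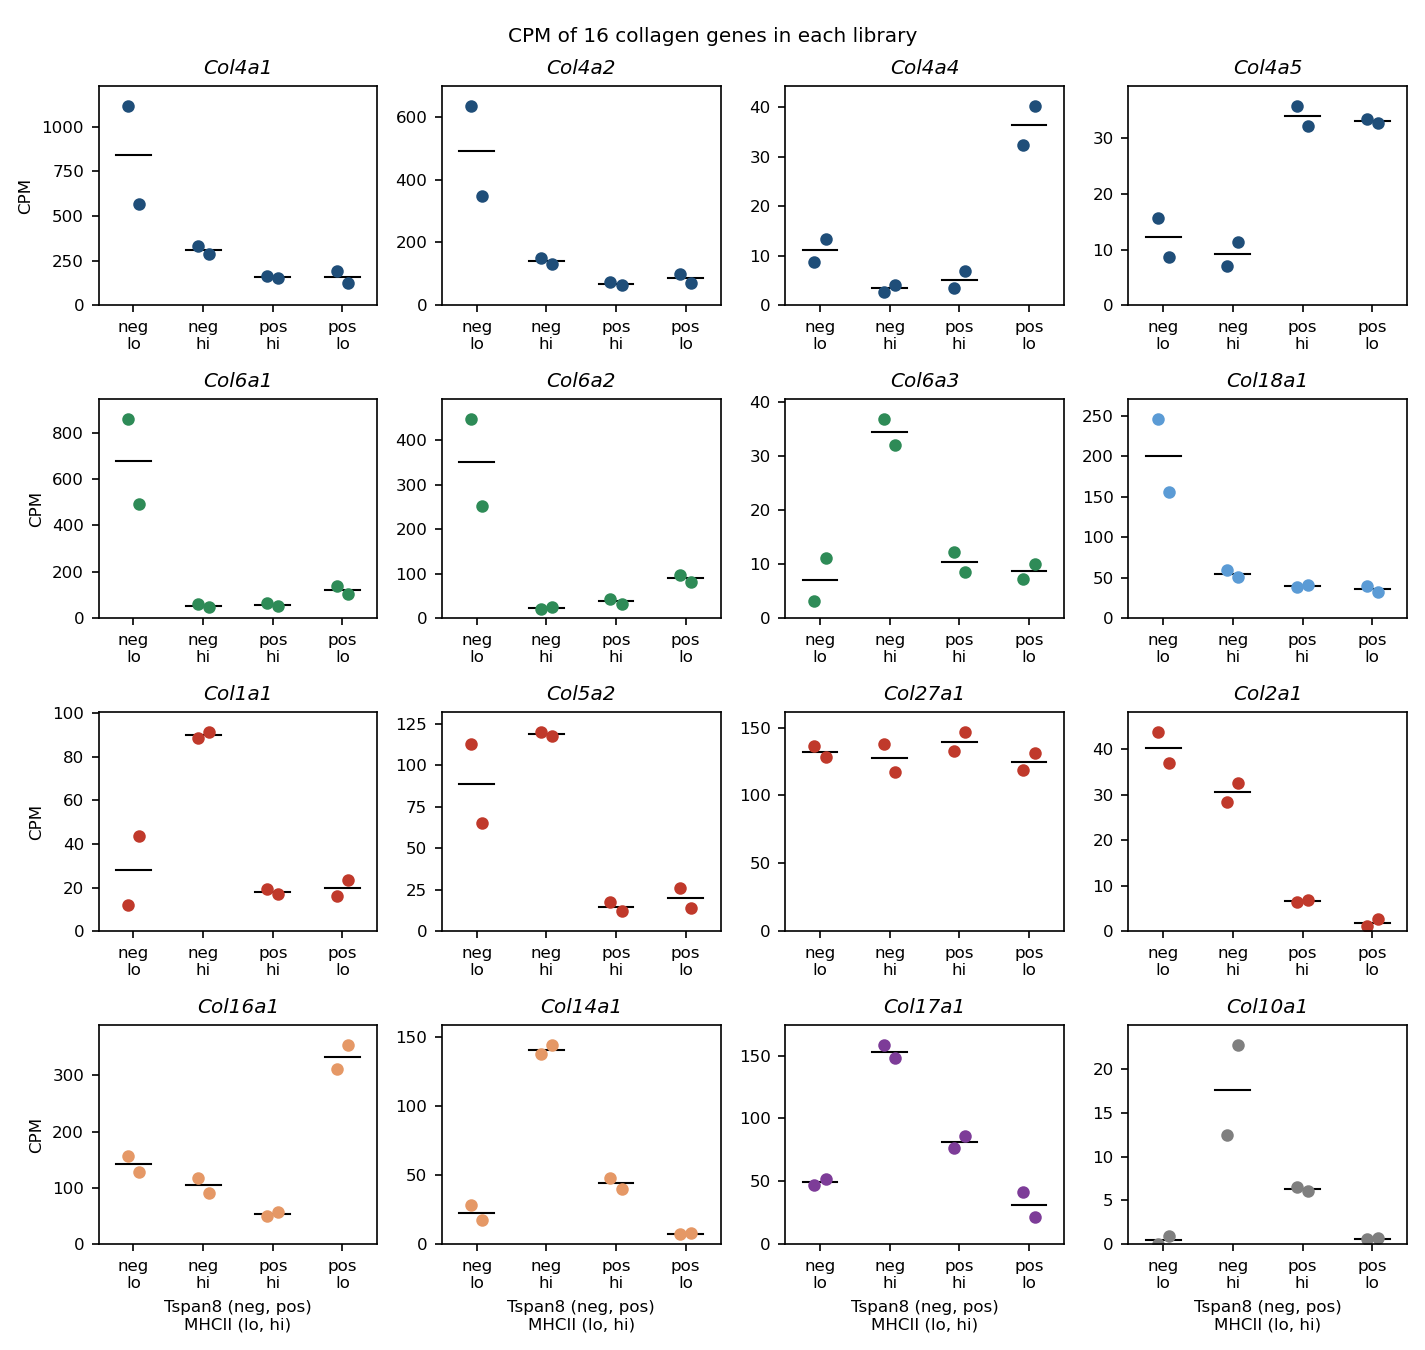
CPM of 16 collagen genes (vertical axes from 0, each with its own range) in the 4 subsets, with a point for each library and a line at the mean of 2. Col6a1 and Col6a2 are highest in Tspan8neg MHCIIlo, Col16a1 and Col4a4 in Tspan8pos MHCIIlo, Col1a1, Col14a1 and Col17a1 in Tspan8neg MHCIIhi, and Col27a1 is near one level in all 8 libraries.

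Type IV genes are described first, with the DNA of their shared starts, because the 3 head-to-head pairs behaved differently. Sequences are from RefSeq windows of the GRCm38.p6 assembly and are set beside gene starts of the annotation. Capitals mark the motif GGGCGG, the motif CCAAT, the motif TATAAA and the motif AGGAAG on either strand, and no matches overlap in these sequences. Col4a1 (chr8:11198423-11312826, minus strand) and Col4a2 (chr8:11312805-11449287, plus strand) overlap by 22 bases at their starts, and Col4a4 (chr1:82448423-82586849, minus strand) and Col4a3 (chr1:82586921-82722059, plus strand) lie 71 bases apart. Col4a6 (chrX:141165403-141474076, minus strand) and Col4a5 (chrX:141475385-141689234, plus strand) are separated by 1308 bases. The shared bases of the first pair (plus strand), the bases between the second pair (plus strand) and the bases before each start of the third pair (on the strand of the gene) read:
Col4a1 and Col4a2 overlap, chr8:11312805-11312826: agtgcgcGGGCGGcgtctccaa
Col4a4 to Col4a3, chr1:82586850-82586920: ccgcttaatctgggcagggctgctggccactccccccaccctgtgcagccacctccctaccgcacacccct
Col4a5, chrX:141475169-141475384: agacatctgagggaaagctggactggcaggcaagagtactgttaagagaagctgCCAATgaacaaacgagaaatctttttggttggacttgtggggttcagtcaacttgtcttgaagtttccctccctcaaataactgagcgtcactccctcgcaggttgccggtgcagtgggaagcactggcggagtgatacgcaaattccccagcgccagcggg
Col4a6, chrX:141474077-141474326: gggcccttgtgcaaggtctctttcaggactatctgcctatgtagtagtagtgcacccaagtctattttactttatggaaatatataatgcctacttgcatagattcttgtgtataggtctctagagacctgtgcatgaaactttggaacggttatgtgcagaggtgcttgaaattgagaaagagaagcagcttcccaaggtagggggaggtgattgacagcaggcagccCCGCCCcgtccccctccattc
The overlap of Col4a1 and Col4a2 held 1 GGGCGG in 72.7% GC, and the 71 bases between Col4a4 and Col4a3 held none of the 4 motifs in 69.0% GC.

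Over the collagen genes with a RefSeq window (35 of 44), the 250 bases before the start had a median GC of 59.2%, beside 52.4% for all 32851 windows. GGGCGG was found in 21 of the 35, beside 32.7% of all windows. CCAAT was found in 12 (33.8% of all windows), TATAAA in 5 (12.4%) and AGGAAG in 8 (29.5%). These matches are a description of the letters and not of bound sites.

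Col4a1 and Col4a2, the genes of the common α1 and α2 chains, fell together from Tspan8neg MHCIIlo to the other subsets. Col4a1 had 1117 and 567 CPM in Tspan8neg MHCIIlo, 331 and 286.5 in Tspan8neg MHCIIhi, 162 and 149 in Tspan8pos MHCIIhi and 192 and 126.5 in Tspan8pos MHCIIlo. Col4a2 had 635 and 349 CPM, 151 and 130 CPM, 72.3 and 64.8 CPM, and 98.9 and 71.0 CPM in the same order. The Tspan8neg subsets lay above the Tspan8pos ones in every library for both genes, and replicate 1 of Tspan8neg MHCIIlo was well above replicate 2. In MHCIIlo, Col4a1 was lower in Tspan8pos by a log2 fold change of -2.42 ± 0.29 (SE, edgeR adjusted p = 7.18e-05) and Col4a2 by -2.56 ± 0.27 (edgeR adjusted p = 2.38e-05). In MHCIIhi, Col4a2 was lower by -1.03 ± 0.26 (edgeR adjusted p = 0.00839), and Col4a1 had -0.99 ± 0.28 and was not called (edgeR adjusted p = 0.0166). The Col4a2 call in MHCIIhi was lost on leaving out any library of Tspan8neg MHCIIhi, Tspan8pos MHCIIhi or Tspan8pos MHCIIlo, with values of -1.21 to -0.95. Within Tspan8neg, MHCIIhi cells were lower in Col4a1 by -1.45 ± 0.28 (edgeR adjusted p = 0.00169) and in Col4a2 by -1.81 ± 0.25 (edgeR adjusted p = 0.000212). The Col4a1 value was -0.89 without replicate 1 of Tspan8neg MHCIIlo and -1.46 and -1.26 without replicate 1 or 2 of Tspan8neg MHCIIhi, and the call was lost in each case. Within a library the ratio of Col4a1 to Col4a2 RPKM was between 1.44 and 2.04. The genes overlap at their starts on opposite strands, so reads there cannot be assigned if strand was not used in counting.

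Col4a4 did not follow its neighbour Col4a3. Col4a4, the gene of the α4 chain of the specialised network known from the kidney glomerulus, had 32.4 and 40.3 CPM in Tspan8pos MHCIIlo, 8.71 and 13.4 in Tspan8neg MHCIIlo, 2.70 and 4.10 in Tspan8neg MHCIIhi and 3.39 and 6.91 in Tspan8pos MHCIIhi. Col4a3, which encodes the α3 chain of the same network, had 0 and 3 counts in Tspan8neg MHCIIlo, 13 and 27 in Tspan8neg MHCIIhi, 12 and 3 in Tspan8pos MHCIIhi and 1 and 2 in Tspan8pos MHCIIlo. Col4a4 was thus highest in a subset where Col4a3 had at most 2 counts in a library. Col4a4 was higher in Tspan8pos than in Tspan8neg among MHCIIlo cells (log2 fold change 1.72 ± 0.34, edgeR adjusted p = 0.00211) and lower in MHCIIhi than in MHCIIlo among Tspan8pos cells (-2.83 ± 0.36, edgeR adjusted p = 0.000368, or -3.43 without replicate 2 of Tspan8pos MHCIIhi). It was also lower in MHCIIhi among Tspan8neg cells (-1.67 ± 0.39, edgeR adjusted p = 0.00554). Without replicate 2 of Tspan8pos MHCIIlo the first 2 values were 1.54 and -2.65 and not called. The third was lost without replicate 2 of Tspan8neg MHCIIlo or any library of Tspan8neg MHCIIhi or Tspan8pos MHCIIlo, at -1.95 to -1.31. Col4a3 was called in no contrast. Its mean in Tspan8neg MHCIIhi was 3.98-fold higher than the level of 3 counts per library in Tspan8neg MHCIIlo.

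Col4a5 was the one type IV gene called higher in Tspan8pos cells at both MHCII levels. It encodes the α5 chain, which joins both the glomerular and the epidermal type of network, and had 15.7 and 8.72 CPM in Tspan8neg MHCIIlo and 7.07 and 11.4 in Tspan8neg MHCIIhi. In Tspan8pos it had 35.9 and 32.3 CPM at MHCIIhi and 33.5 and 32.8 CPM at MHCIIlo. All 4 Tspan8pos libraries lay above all 4 Tspan8neg libraries. The log2 fold change was 1.85 ± 0.28 in MHCIIhi (edgeR adjusted p = 0.000426) and 1.45 ± 0.30 in MHCIIlo (edgeR adjusted p = 0.00249), the latter not called without replicate 1 or 2 of Tspan8pos MHCIIlo (1.43 and 1.47). Its neighbour Col4a6, for the α6 chain of the epidermal network, had 4.78 and 2.36 CPM in Tspan8neg MHCIIlo, 3.74 and 3.72 in Tspan8neg MHCIIhi, 2.59 and 2.64 in Tspan8pos MHCIIhi and 3.85 and 1.502 in Tspan8pos MHCIIlo, and was called in no contrast. The RPKM ratio of Col4a5 to Col4a6 was 2.24 to 4.39 in Tspan8neg and 10.3 to 25.9 in Tspan8pos libraries. Both genes are overlapped by predicted gene models on both strands, so part of their counts is uncertain.

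Of the 3 genes of the basement membrane zone, 2 were called lower in Tspan8pos in MHCIIlo and 1 in MHCIIhi, against 9.34% and 7.45% of all genes. None was called higher, against 12.1% and 11% of all genes, which for 3 genes is no result about the type. Col18a1, which encodes a basement membrane proteoglycan and the source of endostatin, had 246 and 155 CPM in Tspan8neg MHCIIlo, 58.9 and 51.0 in Tspan8neg MHCIIhi, 38.2 and 40.4 in Tspan8pos MHCIIhi and 40.1 and 32.5 in Tspan8pos MHCIIlo. Tspan8neg MHCIIlo stood apart from the other 3 subsets. Col18a1 was lower in Tspan8pos among MHCIIlo cells (-2.50 ± 0.23, edgeR adjusted p = 8.29e-06) and lower in MHCIIhi among Tspan8neg cells (-1.87 ± 0.21, edgeR adjusted p = 4.90e-05). Its interaction was -2.02 ± 0.31 (edgeR adjusted p = 0.00242), and that call was lost without any 1 MHCIIhi library or replicate 2 of Tspan8pos MHCIIlo (-2.09 to -1.85). Slc19a1 overlaps Col18a1 on the opposite strand. Col15a1, the related basement membrane gene, had 49.7 and 41.3 CPM, 36.6 and 40.0 CPM, 16.7 and 15.2 CPM, and 43.4 and 35.4 CPM in Tspan8neg MHCIIlo, Tspan8neg MHCIIhi, Tspan8pos MHCIIhi and Tspan8pos MHCIIlo. It was low in Tspan8pos MHCIIhi alone of the 4 subsets, by -1.26 ± 0.19 against Tspan8neg (edgeR adjusted p = 0.000326) and -1.27 ± 0.19 against MHCIIlo (edgeR adjusted p = 0.0011). The latter was not called without replicate 1 or 2 of Tspan8pos MHCIIhi or replicate 1 of Tspan8pos MHCIIlo (-1.32 to -1.12). Col7a1, which forms the anchoring fibrils beneath stratified epithelia, had 58.1 and 30.9 CPM, 47.4 and 48.2 CPM, 28.3 and 27.8 CPM, and 20.3 and 15.97 CPM in that order of subsets. It was lower in Tspan8pos among MHCIIlo cells (-1.34 ± 0.28, edgeR adjusted p = 0.00288), a call lost without replicate 1 of Tspan8neg MHCIIlo (-0.84) or without either library of Tspan8pos MHCIIlo (-1.48 and -1.12).

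Type VI divided into members with opposite patterns. Col6a1 (chr10:76708792-76726168, minus strand) had 859 and 493 CPM in Tspan8neg MHCIIlo, 59.7 and 46.0 in Tspan8neg MHCIIhi, 64.9 and 51.8 in Tspan8pos MHCIIhi and 138.5 and 102 in Tspan8pos MHCIIlo. Col6a2 (chr10:76595762-76623630, minus strand), for the second of the 3 chains of the classical type VI molecule, had 447 and 253 CPM, 20.8 and 24.4 CPM, 43.6 and 32.7 CPM, and 97.8 and 80.7 CPM in the same order. For both genes the Tspan8neg MHCIIlo libraries lay above all others, and those of Tspan8pos MHCIIlo came next. The genes are neighbours on the same strand, 85161 bases apart, and the bases before their starts, on the minus strand and marked as above, read:
Col6a1, chr10:76726169-76726294: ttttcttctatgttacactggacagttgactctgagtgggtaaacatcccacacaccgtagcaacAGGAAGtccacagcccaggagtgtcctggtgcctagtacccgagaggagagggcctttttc
Col6a2, chr10:76623631-76623880: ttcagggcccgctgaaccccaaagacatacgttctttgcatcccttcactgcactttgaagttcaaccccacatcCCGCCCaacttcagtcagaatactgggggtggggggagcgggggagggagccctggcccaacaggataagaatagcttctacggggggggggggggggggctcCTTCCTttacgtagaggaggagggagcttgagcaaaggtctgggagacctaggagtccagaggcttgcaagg
Among Tspan8neg cells, MHCIIhi was lower in Col6a1 by -3.68 ± 0.28 (edgeR adjusted p = 3.67e-06) and in Col6a2 by -3.94 ± 0.28 (edgeR adjusted p = 2.42e-06). Among MHCIIlo cells, Tspan8pos was lower by -2.51 ± 0.27 for Col6a1 (edgeR adjusted p = 2.66e-05) and -1.99 ± 0.25 for Col6a2 (edgeR adjusted p = 0.000101). The interactions were -2.66 ± 0.37 (edgeR adjusted p = 0.00152) and -2.74 ± 0.37 (edgeR adjusted p = 0.00127). Without replicate 2 of Tspan8pos MHCIIlo they were -2.44 and -2.60 and not called, and for Col6a1 the call was also lost without replicate 2 of Tspan8neg MHCIIhi (-2.40) or replicate 1 of Tspan8pos MHCIIhi (-2.51). Among Tspan8pos cells, Col6a2 was lower in MHCIIhi by -1.21 ± 0.26 (edgeR adjusted p = 0.00901), a call lost with DESeq2 size factors and without any 1 library other than those of Tspan8neg MHCIIlo (-1.41 to -1.02), and Col6a1 had -1.03 ± 0.27 and was not called (edgeR adjusted p = 0.0223).

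Col6a3, which provides the third chain of the classical molecule, was instead highest in Tspan8neg MHCIIhi. It had 3.09 and 11.1 CPM in Tspan8neg MHCIIlo, 36.8 and 32.0 in Tspan8neg MHCIIhi, 12.2 and 8.53 in Tspan8pos MHCIIhi and 7.15 and 10.1 in Tspan8pos MHCIIlo. Among Tspan8neg cells it was higher in MHCIIhi by 2.24 ± 0.41 (edgeR adjusted p = 0.0013), the direction opposite to that of Col6a1 and Col6a2, with 1.62 and 3.45 without replicate 1 or 2 of Tspan8neg MHCIIlo. Among MHCIIhi cells it was lower in Tspan8pos by -1.73 ± 0.39 (edgeR adjusted p = 0.00478), a call lost without any 1 of the 4 MHCIIhi libraries (-1.98 to -1.49). Col6a5, for one of the chains that can take the place of the α3 chain, had 57.9 and 66.0 CPM, 164.5 and 155 CPM, 29.7 and 30.1 CPM, and 6.60 and 8.87 CPM in Tspan8neg MHCIIlo, Tspan8neg MHCIIhi, Tspan8pos MHCIIhi and Tspan8pos MHCIIlo. No subset overlapped another, and Col6a5 was called in all 4 contrasts: lower in Tspan8pos by -2.91 ± 0.19 in MHCIIlo (edgeR adjusted p = 7.47e-07) and -2.42 ± 0.15 in MHCIIhi (edgeR adjusted p = 7.71e-07). It was higher in MHCIIhi by 1.36 ± 0.14 in Tspan8neg (edgeR adjusted p = 3.51e-05) and 1.86 ± 0.19 in Tspan8pos (edgeR adjusted p = 8.73e-05). Its neighbour Col6a4 had 115 and 80.6 CPM, 62.4 and 59.5 CPM, 15.7 and 14.8 CPM, and 10.4 and 8.33 CPM in that order. Col6a4 was lower in Tspan8pos by -3.45 ± 0.23 in MHCIIlo (edgeR adjusted p = 9.02e-07) and -1.99 ± 0.20 in MHCIIhi (edgeR adjusted p = 2.11e-05).

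Among the 11 fibrillar genes, 3 were called lower in Tspan8pos in MHCIIlo and 4 in MHCIIhi, against 9.34% and 7.45% of all genes. None was called higher at either MHCII level, against 12.1% and 11% of all genes. For 11 genes a count of 0 is near these shares and no result about the type. Col5a2 (chr1:45374321-45503282, minus strand), a type V chain that helps to start fibrils, had 113 and 65.1 CPM in Tspan8neg MHCIIlo, 120 and 117.5 in Tspan8neg MHCIIhi, 17.3 and 12.4 in Tspan8pos MHCIIhi and 25.8 and 13.9 in Tspan8pos MHCIIlo. Its partner Col5a1 had 49.7 and 53.1 CPM, 112.5 and 99.9 CPM, 18.3 and 21.5 CPM, and 14.3 and 9.15 CPM in the same order. For both genes the 4 Tspan8neg libraries lay above the 4 Tspan8pos libraries. Col5a2 was lower in Tspan8pos by -2.30 ± 0.32 in MHCIIlo (edgeR adjusted p = 0.00018) and -2.995 ± 0.30 in MHCIIhi (edgeR adjusted p = 2.19e-05). Col5a1 was lower by -2.26 ± 0.22 (edgeR adjusted p = 1.29e-05) and -2.41 ± 0.19 (edgeR adjusted p = 3.10e-06). Col5a1 was also higher in MHCIIhi among Tspan8neg cells, by 1.04 ± 0.17 (edgeR adjusted p = 0.000684), and by 0.99 without replicate 1 of Tspan8neg MHCIIlo, under the limit on the fold change.

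The third type V gene, Col5a3, followed MHCII and not Tspan8. It had 15.5 and 20.0 CPM in Tspan8neg MHCIIlo, 104 and 107 in Tspan8neg MHCIIhi, 74.3 and 86.2 in Tspan8pos MHCIIhi and 11.0 and 21.3 in Tspan8pos MHCIIlo. The MHCIIhi libraries all lay above the MHCIIlo libraries, by a log2 fold change of 2.56 ± 0.23 in Tspan8neg (edgeR adjusted p = 1.18e-05) and 2.17 ± 0.23 in Tspan8pos (edgeR adjusted p = 0.000116), the latter 2.87 without replicate 2 of Tspan8pos MHCIIlo. Neither Tspan8 contrast was called for this gene.

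Col2a1, the main collagen of cartilage, had 43.8 and 37.0 CPM in Tspan8neg MHCIIlo, 28.5 and 32.6 in Tspan8neg MHCIIhi, 6.37 and 6.91 in Tspan8pos MHCIIhi and 1.099 and 2.73 in Tspan8pos MHCIIlo. Its 4 subsets did not overlap. It was lower in Tspan8pos by -4.10 ± 0.31 in MHCIIlo (edgeR adjusted p = 2.08e-06), or -5.16 without replicate 2 of Tspan8pos MHCIIlo, and by -2.20 ± 0.25 in MHCIIhi (edgeR adjusted p = 4.85e-05). Of 7 other cartilage markers, Sox9 was not lowest where Col2a1 was. It had 326.5 and 305 CPM in Tspan8pos MHCIIlo and 237 and 198.5 in Tspan8neg MHCIIlo. Acan was at 0 in both Tspan8pos MHCIIlo libraries and at 18.9 and 22.3 CPM in Tspan8neg MHCIIhi. In Tspan8neg MHCIIlo, where Col2a1 was highest, Acan had only 0 and 0.7073 CPM. Comp (1.404 and 1.415 CPM) and Cnmd (1.966 and 4.008 CPM) were also low there. Matn1 had the subset order of Col2a1, at 41.29 and 28.76 CPM in Tspan8neg MHCIIlo and 22.25 and 16.15 in Tspan8neg MHCIIhi. In Tspan8pos, Matn1 had 6.174 and 6.908 CPM at MHCIIhi and 1.099 and 1.775 at MHCIIlo. Of the 6 cartilage markers tested, 2 were lower in Tspan8pos in MHCIIlo and 3 in MHCIIhi, against 9.34% and 7.45% of all genes. The partners of Col2a1 in cartilage fibrils had other patterns, and Col11a2 had 52.2 and 35.6 CPM, 20.8 and 16.5 CPM, 20.5 and 27.0 CPM, and 36.3 and 32.6 CPM in the order of subsets above. Col11a2 was lower in MHCIIhi among Tspan8neg cells (-1.24 ± 0.23, edgeR adjusted p = 0.00145), a call lost without replicate 1 of Tspan8neg MHCIIlo or replicate 2 of Tspan8neg MHCIIhi (-0.96 and -0.98). Col11a1 had 1 and 0 counts in Tspan8neg MHCIIlo. Its mean of 3.28 CPM in Tspan8neg MHCIIhi was 4.23-fold higher than the level of 3 counts per library.

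The classical fibrillar genes of connective tissue did not move as a group. Col1a1 had 12.1 and 43.9 CPM in Tspan8neg MHCIIlo, 88.6 and 91.3 in Tspan8neg MHCIIhi, 19.3 and 16.9 in Tspan8pos MHCIIhi and 15.9 and 23.5 in Tspan8pos MHCIIlo. Col3a1 had 32.6 and 78.8 CPM, 16.8 and 16.2 CPM, 12.8 and 11.2 CPM, and 35.7 and 37.4 CPM in that order. So Col1a1 peaked in Tspan8neg MHCIIhi, where Col3a1 was low. Col1a1 was higher in MHCIIhi among Tspan8neg cells by 1.66 ± 0.39 (edgeR adjusted p = 0.00543) and lower in Tspan8pos among MHCIIhi cells by -2.31 ± 0.40 (edgeR adjusted p = 0.000954). Col3a1 was lower in MHCIIhi by -1.76 ± 0.33 in Tspan8neg (edgeR adjusted p = 0.00134) and -1.62 ± 0.35 in Tspan8pos (edgeR adjusted p = 0.00924). Col1a2, the partner of Col1a1 in type I collagen, had 16.01 and 47.6 CPM, 12.9 and 17.6 CPM, 5.97 and 4.06 CPM, and 13.2 and 22.1 CPM, and was called in no contrast. The RPKM ratio of Col1a1 to Col1a2 was 1.43 to 2.29 in the 4 MHCIIlo libraries and 6.12 to 13.0 in the 4 MHCIIhi libraries. With the longest annotated transcript as length it was 0.68 to 1.09 and 2.92 to 6.2, so the separation stayed and the level of the ratio did not. Col1a1, Col1a2 and Col3a1 were all higher in replicate 2 than in replicate 1 of Tspan8neg MHCIIlo, the library with 1164 CPM of thymocyte markers, whereas Col4a1 and Col6a1 were higher in replicate 1. Without replicate 1 or 2 of that subset the Col1a1 difference in Tspan8neg was 1.03 or 2.88, and the Col3a1 difference was -0.99 and not called without replicate 2. The Col1a1 call in Tspan8neg was also lost without any 1 of the 6 libraries of the other subsets (1.65 to 1.78), and that in MHCIIhi without either Tspan8pos MHCIIhi library (-2.39 and -2.21). Col3a1 further lost its call in Tspan8neg without either Tspan8neg MHCIIhi library (-1.70 and -1.64) and in Tspan8pos without any 1 library outside Tspan8neg MHCIIlo (-1.69 to -1.52).

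Col27a1 (chr4:63214004-63334991, plus strand), a short fibrillar collagen and the fibrillar gene with the highest level per length here, had 136 and 128 CPM in Tspan8neg MHCIIlo, 138 and 117.5 in Tspan8neg MHCIIhi, 133 and 147 in Tspan8pos MHCIIhi and 119 and 131 in Tspan8pos MHCIIlo. The 8 libraries lay between 117.5 and 147 CPM, and the gene was called in none of the 5 contrasts.

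Fibril-associated genes held both extremes. Col16a1 (chr4:130047840-130099283, plus strand), which is found close to basement membranes and fibrils, had 312 and 354 CPM in Tspan8pos MHCIIlo, 156 and 128 in Tspan8neg MHCIIlo, 118.5 and 91.1 in Tspan8neg MHCIIhi and 51.0 and 56.7 in Tspan8pos MHCIIhi. Its highest and lowest libraries were thus both in Tspan8pos subsets, which did not overlap with any other. Col16a1 was higher in Tspan8pos among MHCIIlo cells by 1.23 ± 0.17 (edgeR adjusted p = 0.000157), and among MHCIIhi cells had -0.96 ± 0.17, under the limit on the fold change (edgeR adjusted p = 0.00121). Among Tspan8pos cells it was lower in MHCIIhi by -2.63 ± 0.18 (edgeR adjusted p = 7.69e-06). The interaction was 2.19 ± 0.24 (edgeR adjusted p = 0.000441) and was called without each library in turn. Col9a3 was the other fibril-associated gene higher in Tspan8pos among MHCIIlo cells, with 20.3 and 17.9 CPM in Tspan8pos MHCIIlo against 8.15 and 5.66 in Tspan8neg MHCIIlo, 4.37 and 4.49 in Tspan8neg MHCIIhi and 2.99 and 3.66 in Tspan8pos MHCIIhi. The difference was 1.46 ± 0.32 (edgeR adjusted p = 0.00408), and against MHCIIhi within Tspan8pos it was -2.50 ± 0.34 (edgeR adjusted p = 0.000555). The first was lost without replicate 2 of Tspan8neg MHCIIlo or either library of Tspan8pos MHCIIlo (1.21 to 1.57), with DESeq2's Wald test or in a fit of the 4 MHCIIlo libraries alone, the second without replicate 1 of Tspan8pos MHCIIhi (-2.34), and Tcfl5 overlaps the gene on the opposite strand.

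The other 2 chains of type IX collagen, which sits on cartilage fibrils together with Col9a3, went the other way. Col9a2 had 19.4 and 12.5 CPM in Tspan8neg MHCIIlo, 22.3 and 24.0 in Tspan8neg MHCIIhi, 4.98 and 4.67 in Tspan8pos MHCIIhi and 3.30 and 4.23 in Tspan8pos MHCIIlo. Col9a1 had 4.49 and 7.07 CPM, 13.7 and 13.1 CPM, 1.79 and 1.83 CPM, and 0 and 0.410 CPM in the same order. Tspan8neg libraries were above Tspan8pos libraries for both. Col9a2 was lower in Tspan8pos by -1.996 ± 0.33 in MHCIIlo (edgeR adjusted p = 0.000647), not called without replicate 2 of Tspan8pos MHCIIlo (-2.25), and by -2.26 ± 0.30 in MHCIIhi (edgeR adjusted p = 0.000151). Col9a1 was lower by -2.87 ± 0.44 in MHCIIhi (edgeR adjusted p = 0.000404). In MHCIIlo its mean in Tspan8neg was 5.62-fold higher than the level of 3 counts per library in Tspan8pos. The RPKM ratio of Col9a3 to Col9a2 was 0.15 to 0.629 in 6 libraries and 4.95 and 3.39 in Tspan8pos MHCIIlo.

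Col12a1, Col14a1 and Col22a1, which bind fibrils in tendon, skin and at muscle junctions, were lower in Tspan8pos at both MHCII levels. Col12a1 had 256 and 126 CPM in Tspan8neg MHCIIlo, 159 and 145 in Tspan8neg MHCIIhi, 44.0 and 36.6 in Tspan8pos MHCIIhi and 33.0 and 22.5 in Tspan8pos MHCIIlo, and its log2 fold changes were -2.86 ± 0.32 (edgeR adjusted p = 3.75e-05) and -1.91 ± 0.29 (edgeR adjusted p = 0.000392). Col14a1 had 28.4 and 17.5 CPM, 137.5 and 144 CPM, 48.2 and 40.2 CPM, and 7.15 and 8.33 CPM in that order. All 4 subsets were separate for Col14a1, which was higher in MHCIIhi by 2.63 ± 0.21 in Tspan8neg (edgeR adjusted p = 5.26e-06) and 2.46 ± 0.25 in Tspan8pos (edgeR adjusted p = 7.32e-05). It was lower in Tspan8pos by -1.67 ± 0.19 in MHCIIhi (edgeR adjusted p = 5.51e-05) and -1.503 ± 0.26 in MHCIIlo (edgeR adjusted p = 0.000969), the latter -1.66 and not called without replicate 2 of Tspan8pos MHCIIlo. Col22a1 had 22.5 and 16.03 CPM, 35.6 and 33.6 CPM, 10.4 and 11.2 CPM, and 6.60 and 2.46 CPM. It was lower in Tspan8pos by -2.41 ± 0.38 in MHCIIlo (edgeR adjusted p = 0.000494) and -1.68 ± 0.30 in MHCIIhi (edgeR adjusted p = 0.00116). The first was -1.53 and not called without replicate 2 of Tspan8pos MHCIIlo, and the second was lost without replicate 1 of Tspan8neg MHCIIhi or either Tspan8pos MHCIIhi library (-1.72 to -1.60). Col19a1 and Col20a1 were called in no contrast.

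Among the 4 transmembrane genes Col17a1 was called, higher in MHCIIhi in Tspan8neg and in Tspan8pos, against 13.1% and 4.59% of all genes. Col13a1, Col23a1 and Col25a1 were called in no contrast, with at most 33, 81 and 19 counts in a library. With 4 genes, mostly low, these counts of calls are no result about the type. Col17a1 (chr19:47646344-47692094, minus strand) had 158 and 148 CPM in Tspan8neg MHCIIhi, 76.9 and 86.2 in Tspan8pos MHCIIhi, 46.9 and 52.1 in Tspan8neg MHCIIlo and 41.8 and 21.3 in Tspan8pos MHCIIlo. The subsets did not overlap, and the MHCIIhi subsets were the higher ones at each Tspan8 level. Col17a1 was higher in MHCIIhi by 1.63 ± 0.23 in Tspan8neg (edgeR adjusted p = 0.000218) and 1.496 ± 0.25 in Tspan8pos (edgeR adjusted p = 0.00188). The latter was 0.97 without replicate 2 of Tspan8pos MHCIIlo and 1.59 and 1.41 without replicate 1 or 2 of Tspan8pos MHCIIhi, and not called in each case. Between Tspan8pos and Tspan8neg it differed by -0.78 ± 0.25 in MHCIIlo (edgeR adjusted p = 0.03) and -0.91 ± 0.22 in MHCIIhi (edgeR adjusted p = 0.00705), under the limit on the fold change. Krt14, a keratin of the basal layer in which Col17a1 is known, ran opposite among Tspan8neg cells, with 182 and 151 CPM in MHCIIhi and 927 and 558 in MHCIIlo.

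The other transmembrane genes were low. Col13a1, a collagen of cell contacts and the neuromuscular junction, had 20 and 33 counts in Tspan8neg MHCIIhi, 2 and 3 in Tspan8neg MHCIIlo, 5 and 4 in Tspan8pos MHCIIhi and 0 in both Tspan8pos MHCIIlo libraries. Its mean in Tspan8neg MHCIIhi was 5.41-fold higher than the level of 3 counts per library in Tspan8neg MHCIIlo, with an edgeR adjusted p of 0.0115. Col23a1 had 28 and 15 counts, 30 and 81 counts, 14 and 2 counts, and 1 and 10 counts in Tspan8neg MHCIIlo, Tspan8neg MHCIIhi, Tspan8pos MHCIIhi and Tspan8pos MHCIIlo, and both Tspan8 differences were not called (-2.27 ± 0.79, edgeR adjusted p = 0.0387, and -2.37 ± 0.68, edgeR adjusted p = 0.0184). Col25a1, a neuronal member, had 4 and 6 counts, 12 and 19 counts, 4 and 7 counts, and 4 and 10 counts in the same order.

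Of the remaining genes, Col10a1, the short-chain collagen of hypertrophic cartilage, had 0 and 0.943 CPM in Tspan8neg MHCIIlo, 12.5 and 22.7 in Tspan8neg MHCIIhi, 6.57 and 6.10 in Tspan8pos MHCIIhi and 0.550 and 0.683 in Tspan8pos MHCIIlo. It was higher in MHCIIhi by 5.06 ± 0.66 in Tspan8neg (edgeR adjusted p = 0.000135) and 3.23 ± 0.68 in Tspan8pos (edgeR adjusted p = 0.00788). The low subsets held at most 5 counts, so these fitted values are imprecise: the first was 4.20 and 9.48 without replicate 1 or 2 of Tspan8neg MHCIIlo, and the second was not called without any 1 library outside that subset (3.20 to 3.47). Nt5dc1 overlaps Col10a1 on the opposite strand. Col28a1 (chr6:7997808-8192617, minus strand), a collagen known from nerve, had 1 and 0 counts in Tspan8neg MHCIIlo, 7 and 15 in Tspan8neg MHCIIhi, 16 and 17 in Tspan8pos MHCIIhi and 9 and 38 in Tspan8pos MHCIIlo. Its mean of 5.07 CPM in Tspan8pos MHCIIlo was 6.54-fold higher than the level of 3 counts per library in Tspan8neg MHCIIlo. This difference was called (edgeR adjusted p = 0.00103), but not without replicate 2 of Tspan8pos MHCIIlo. In all, 31 collagen genes were called in at least 1 contrast and 12 tested genes in none. The same share over all genes was not counted, so these numbers are only a tally. Col26a1 was lower in Tspan8pos among MHCIIhi cells at 0.398 and 0.813 CPM against 3.33 and 5.51 CPM. Col6a6, Col8a1 and Col24a1 were called in no contrast, with at most 43 counts in a library, and Col8a2, which was not tested, had at most 14.

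Of 21 tested genes that modify and secrete collagen chains, 7 were lower and 0 higher in Tspan8pos among MHCIIlo cells, against 9.34% and 12.1% of all genes. Among MHCIIhi cells 3 were lower and 1 higher, against 7.45% and 11%. In MHCIIhi, 5 were lower and 0 higher among Tspan8neg cells, against 9.67% and 13.1%, and 2 were lower and 0 higher among Tspan8pos cells, against 2.62% and 4.59%. A negative interaction was called for 2, against 2.24% of all genes. Serpinh1, the collagen chaperone HSP47, had 284 and 236 CPM in Tspan8neg MHCIIlo, 65.7 and 63.3 in Tspan8neg MHCIIhi, 14.5 and 24.2 in Tspan8pos MHCIIhi and 46.2 and 48.5 in Tspan8pos MHCIIlo. It was called lower in all 4 contrasts. Plod2, a lysyl hydroxylase that prepares cross-links, was lower in Tspan8pos among MHCIIlo cells by -3.21 ± 0.41 (edgeR adjusted p = 0.000111).

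Of 12 cross-linking and processing enzymes tested, 3 were higher and 4 lower in Tspan8pos among MHCIIlo cells, against 12.1% and 9.34% of all genes. Among MHCIIhi cells 1 was higher and 5 were lower, against 11% and 7.45%. In MHCIIhi 4 were higher and 1 lower among Tspan8neg cells (13.1% and 9.67% of all genes), and 2 were higher and 0 lower among Tspan8pos cells (4.59% and 2.62%). Pcolce, an enhancer of procollagen cleavage, was higher in Tspan8pos by 2.72 ± 0.20 in MHCIIlo (edgeR adjusted p = 1.83e-06) and 3.24 ± 0.19 in MHCIIhi (edgeR adjusted p = 4.92e-07), while Bmp1, the protease it enhances, was lower by -2.09 ± 0.16 (edgeR adjusted p = 2.42e-06) and -1.22 ± 0.15 (edgeR adjusted p = 9.25e-05). Lysyl oxidase (Lox) had 63.2 and 25.7 CPM in Tspan8neg MHCIIlo and 2.91 and 3.97 in Tspan8neg MHCIIhi. Its relative Loxl4 ran opposite, with 4.49 and 3.30 CPM in Tspan8neg MHCIIlo and 29.95 and 27.3 in Tspan8neg MHCIIhi.

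Of 9 collagen receptors tested, at most 1 was called in each direction of any contrast, against 2.24% to 13.1% of all genes, so their counts are no result about receptors. Ddr1, the discoidin receptor of epithelia, was lower in MHCIIhi among Tspan8neg cells (-1.55 ± 0.16, edgeR adjusted p = 2.84e-05) with an interaction of -1.49 ± 0.22 (edgeR adjusted p = 0.00221). Of 6 degrading enzymes, 3 were lower and 1 higher in Tspan8pos among MHCIIlo cells, against 9.34% and 12.1% of all genes. The gelatinase Mmp9, which cleaves type IV collagen, had -3.39 ± 0.22 (edgeR adjusted p = 8.63e-07). Among MHCIIhi cells 1 was lower and 1 higher, against 7.45% and 11%. In MHCIIhi 2 were lower and 1 higher among Tspan8neg cells (9.67% and 13.1% of all genes) and 0 lower and 1 higher among Tspan8pos cells (2.62% and 4.59%).

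Other basement membrane genes shared the direction of Col4a1 and Col4a2 among MHCIIlo cells, where 11 of 18 tested were lower in Tspan8pos and 1 was higher, against 9.34% and 12.1% of all genes. Among MHCIIhi cells 4 were lower and 0 higher, against 7.45% and 11%. In MHCIIhi 7 were lower and 3 higher among Tspan8neg cells (9.67% and 13.1% of all genes), and 2 were lower and 0 higher among Tspan8pos cells (2.62% and 4.59%). A negative interaction was called for 4 and a positive one for 1, against 2.24% and 2.36% of all genes. Lamb3, a chain of the epithelial laminin 332, had 271 and 192 CPM in Tspan8neg MHCIIlo, 38.5 and 34.7 in Tspan8neg MHCIIhi, 51.4 and 48.6 in Tspan8pos MHCIIhi and 58.3 and 31.8 in Tspan8pos MHCIIlo. As for Col18a1, Tspan8neg MHCIIlo stood apart from the other subsets, and the interaction of Lamb3 was -2.90 ± 0.36 (edgeR adjusted p = 0.000807). Of the nidogens, which link laminin to type IV collagen, Nid1 differed from Lamb3. It had 14.3 and 13.0 CPM in Tspan8neg MHCIIlo and 50.7 and 53.1 in Tspan8neg MHCIIhi. Nid2 was lower in Tspan8pos among MHCIIlo cells, as Lamb3 was, by -1.86 ± 0.24 (edgeR adjusted p = 0.000113). Between MHCII levels in Tspan8neg, Nid2 had 0.50 ± 0.20 and was not called (edgeR adjusted p = 0.0679).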

How the data were processed

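Messenger RNA was measured by RNA-seq in 8 libraries of sorted wild-type mTECs, 2 per subset. Per the labels and the methods, the authors quantified reads with Salmon 1.8.0 against a Gencode mouse transcriptome (mm10) and deposited estimated counts per gene, which were whole numbers without normalization. The labels name a strand-specific mRNA kit and the methods cDNA pre-amplification with tagmentation. Whether counting used strand is not given, and collagen genes with an opposite-strand neighbour over them are uncertain. Symbols, lengths and coordinates came from GENCODE vM21 (GRCm38), a later release than the authors used, and 99.49% of identifiers matched.

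Counts were tested with edgeR 4.0.16 (R 4.3.3): TMM, filterByExpr, 1 quasi-likelihood fit of all 8 libraries (common dispersion 0.024), two-sided, with Benjamini-Hochberg adjustment over 17006 genes. The call limits were 0.01 on adjusted p and 1 on the size of the log2 fold change. SE is the log2 fold change divided by the root of F. CPM used TMM library sizes, and RPKM the union of exons. Tests were run on simulated counts with a dispersion of 0.024 for all genes and subsets. This cannot show how they behave with the unequal spread of these libraries. DESeq2 1.42.0, other filters, thresholds and scalings, fits to 4 libraries, a replicate block and leaving out each library were alternatives. An exact permutation test of 2 against 2 libraries cannot reach 0.05 and was not run.

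Genes given individually were those called with a mean of at least 5 CPM in a subset, all type IV and transmembrane genes and the 3 fibrillar genes with the highest RPKM, and others were chosen after their values were seen. The genes and lists were chosen with earlier results of these data known. Protein sequences were not used here.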

Additional observations from a re-analysis of the deposited data

Results flagged for a closer look

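For 4 collagen genes the difference between Tspan8pos and Tspan8neg was tested to differ between MHCIIlo and MHCIIhi by the interaction in edgeR's fit. Col16a1 had an interaction of 2.19 ± 0.24 on the log2 scale (edgeR adjusted p = 0.000441), with Tspan8pos above Tspan8neg in MHCIIlo and below it in MHCIIhi. Col18a1 had -2.02 ± 0.31 (edgeR adjusted p = 0.00242), Col6a1 -2.66 ± 0.37 (edgeR adjusted p = 0.00152) and Col6a2 -2.74 ± 0.37 (edgeR adjusted p = 0.00127), each with Tspan8pos called below Tspan8neg in MHCIIlo and not called in MHCIIhi. Col6a2 in MHCIIhi had a log2 fold change of 0.75 ± 0.27 (edgeR adjusted p = 0.0496), not called.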

How the results depend on the processing

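Of 67 calls of collagen genes given individually, 39 were kept under every alternative, 57 under every alternative that left out no library, and none changed sign. Calls lost with all libraries kept or with the 4 of the contrast alone were those of Col7a1, Col9a3, Col14a1 and Col22a1 between Tspan8 levels in MHCIIlo and of Col1a1, Col3a1, Col4a1, Col4a4 and Col11a2 between MHCII levels in Tspan8neg (4 libraries alone, Col9a3 also with DESeq2's Wald test), and of Col6a2 between MHCII levels in Tspan8pos (DESeq2 size factors). Counts of calls that moved by more than 1.5 times did so as follows. For Tspan8pos against Tspan8neg in MHCIIlo (21 collagen genes), leaving out 1 library gave 13 to 23. For MHCIIhi against MHCIIlo it gave 11 to 15 in Tspan8neg (17) and 5 to 15 in Tspan8pos (11), where an adjusted p under 0.05 gave 17. For the interaction (4) it gave 1 to 11, no filter on low counts gave 9 and an adjusted p under 0.05 gave 12. With 1 library left in a subset, its spread is taken from the others, and the cause of each change was not tested.

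The replicate block gave 8 collagen genes in the interaction, and 22, 17, 16 and 14 in the other contrasts. Replicate numbers are shared by the labels without stating what they mark, and correlations of deviations between subsets of 0.0121 to 0.124 do not show pairing.

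With the longest annotated transcript as length, the type IV share of collagen RPKM was 20.1% in place of 21.5% in Tspan8neg MHCIIhi and 22.7% in place of 24.9% in Tspan8pos MHCIIhi. The fibrillar share was 27.0% in place of 24.4%, 26.8% in place of 23.6%, and 17.6% in place of 14.8% in Tspan8neg MHCIIhi, Tspan8pos MHCIIhi and Tspan8pos MHCIIlo. The transmembrane share was 8.63% in place of 9.29% and 8.59% in place of 9.44% in the MHCIIhi subsets.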
